A study of Homo sapiens with 2 samples.

Results

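The genes of the translation initiation factors (symbols EIF followed by a digit) and elongation factors (EEF followed by a digit) were examined in KYSE30 cells, an established line of esophageal squamous cell carcinoma. RNA was sequenced from 2 libraries of stable transfectants, with 1 library per group. Mock cells carry the pIRES2-EGFP vector. RHCG cells carry an expression vector for human RHCG, a transporter of ammonia and ammonium. The labels do not say whether a transfectant was 1 clone or a pool, or whether both vectors share a backbone. Members were the protein-coding genes whose symbol opens with EIF or EEF and a digit. RefSeq holds 70 such genes, and 68 of them were among the 40392 genes of the tables. Of these 68, 64 were listed above 0 in at least 1 library, 62 of them in both. EEF2KMT, EIF1AY, EIF2S3B and EIF4E1B were listed at 0 in both libraries, and EEF1AKMT4 and EEF1AKMT4-ECE2 were not among the genes analysed here.

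Translation starts when eIF2 carries the initiator tRNA to the small ribosomal subunit, together with eIF1, eIF1A, eIF3 and eIF5. The eIF4F complex brings the subunit to the capped end of the mRNA: eIF4E binds the cap, eIF4G is the scaffold and eIF4A is an RNA helicase. The subunit scans to a start codon, eIF5B joins the large subunit, and eEF1A and eEF2 then drive elongation. Control acts at 2 main points. Kinases of the EIF2AK genes phosphorylate eIF2 under stress and thereby block eIF2B, its nucleotide exchange factor, and the 4E-BP proteins of the EIF4EBP genes hold eIF4E until mTORC1 phosphorylates them.

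Levels are in RPKM, reads per kilobase of transcript scaled to the depth of the library. The log2 ratio compares RHCG with mock after 1 RPKM is added to each value, and a log2 ratio of at least 1, or of −1 or less, is called. Plain folds are RHCG RPKM over mock RPKM, with an approximate 95% Clopper-Pearson interval from estimated read numbers. These intervals cover counting error only. With 1 library per group no test between the groups could be made, so each difference is one between these 2 libraries, and how far cultures of 1 group differ is not known. In such bulk RNA, a change in the share of cells that express a gene and a change in RNA per cell cannot be told apart.

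No translation factor gene was 2-fold higher or 2-fold lower in RHCG cells: 0 of 64 were called in either direction. Among all 12857 genes listed above 0 in at least 1 library, 2.74% were called higher and 3.30% lower, and among the 11433 protein-coding genes 2.57% and 3.28%. The factor genes had a median log2 ratio of −0.05, with 30 above 0 and 34 below, and the median of all tested genes was −0.01. At a looser rule of 1.5-fold, 8 factor genes (12.5%) were higher and 4 (6.25%) lower, beside 11.3% and 11.5% of all tested genes and 11.0% and 11.9% of protein-coding ones. The 8 were EIF3A, EIF4EBP1, EIF1, EIF4A2, EIF1B, EIF1AD, EEF1AKMT1 and EEF1E1, and the 4 were EIF3K, EIF3F, EIF3G and EIF4A3. EEF1AKMT3, EIF5B and EEF1A2 were past 1.5-fold by plain fold (1.60, 1.59 and 1.51) but not with 1 RPKM added. The shares of higher genes are near each other, so that count is not particular to the factors.

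**Figure D1:**
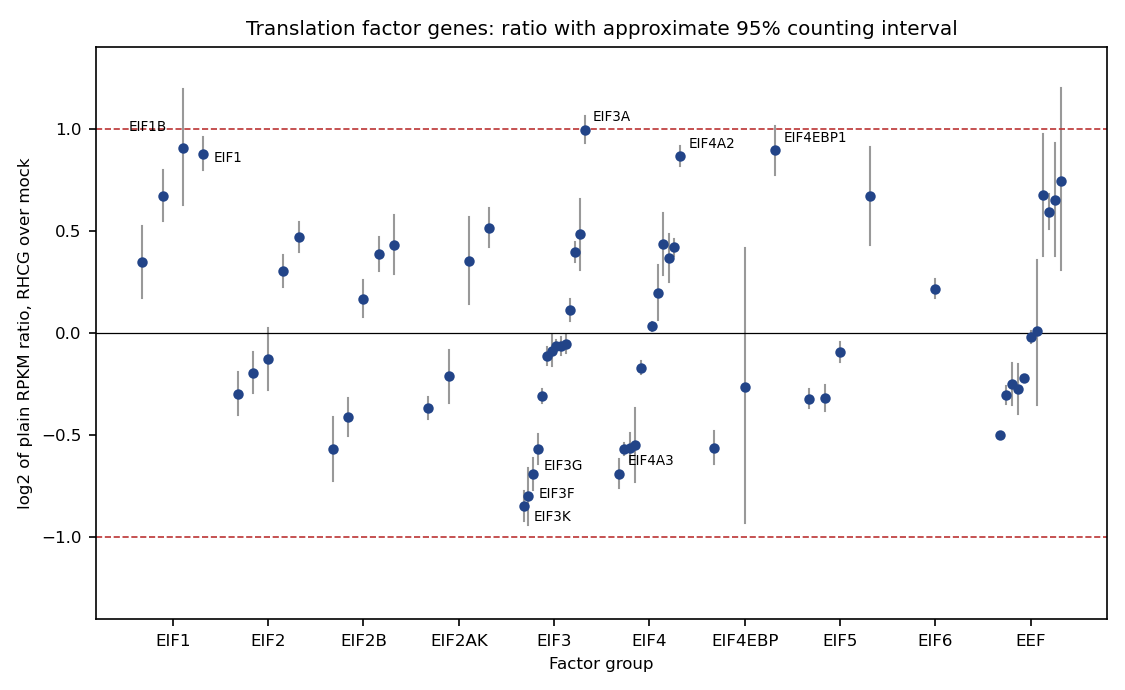
Each point is 1 gene listed in both libraries, placed by factor group on the horizontal axis and by the log2 of its plain RPKM ratio (RHCG over mock) on the vertical axis. Grey lines are approximate 95% counting intervals and dashed lines mark 2-fold. EIF3A lies next to the upper line at 1.99-fold and EIF3K is the lowest gene at 0.556-fold.

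Abundance differed between factor genes far more than between libraries. EEF2, the translocase of elongation, was at 2159 RPKM in mock cells and 1526 in RHCG cells. At the other end EIF5B was at 2.05 and 3.27 RPKM, and EIF4E3, an eIF4E-like gene, was at 1.07 RPKM in mock cells and listed at 0 in RHCG cells. EIF5A2, the less abundant eIF5A gene, was listed at 0 in mock cells and at 1.03 RPKM in RHCG cells. The order of levels over the 62 genes listed in both was nearly the same (Spearman rho 0.971, across genes that share libraries and transcript lengths). Summed RPKM of the factor genes was 7977 in mock cells and 7066 in RHCG cells, or 2.34% and 2.21% of the sum over all protein-coding genes.

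The split above and below 0 went with abundance. Of the 40 factor genes whose mean reached 20 RPKM, 26 (65.0%) lay below 0, beside 50.8% of all protein-coding genes that reached it. These sets are not matched in abundance: 19 of the 40 reached 100 RPKM, against 567 of the 3579 protein-coding genes. Of the 24 below 20 RPKM, 8 (33.3%) lay below 0, beside 50.8% of protein-coding genes. The medians of the abundant and the less abundant factor genes were −0.10 and 0.29. Among the 19 factor genes of at least 100 RPKM, 13 (68.4%) lay below 0 with a median of −0.07. Protein-coding genes of that level were 61.2% below 0 with a median of −0.14, so the share of the most abundant factor genes is near its background. Factor genes with at least 3000 exonic bases had a median of −0.06 (30 genes) and shorter ones of 0.06 (34 genes). Protein-coding genes gave 0.02 and −0.05. The share past 1.5-fold did differ by length. It was 3.33% of the longer factor genes (1 higher, 0 lower) and 32.4% of the shorter ones (7 higher, 4 lower). Protein-coding genes gave 21.5% and 23.8%. The cause was not tested.

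Many mRNAs of the translation machinery open with a C and a run of pyrimidines, the 5' terminal oligopyrimidine (TOP) sequence, through which mTORC1 and the protein LARP1 control their translation. RefSeq starts were searched on the sense strand for a C at the start base followed by at least 4 bases that are each C or T. Such a start was found for 13 (24.1%) of the 54 factor genes whose promoters RefSeq gives here, against 6.24% of all 15843 protein-coding genes with one. The 13 are shown because they hold the most abundant elongation factor genes and several eIF3 genes. Each line gives 15 bases before and 15 from the start base of GRCh38.p14 (the values were made on hg19), 5' to 3', with the run from the start base in capitals.
EEF1A1 (chr6:73521018-73521047, minus strand): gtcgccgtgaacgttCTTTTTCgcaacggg
EEF1B2 (chr2:206159880-206159909, plus strand): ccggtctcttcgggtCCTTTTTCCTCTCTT
EEF2 (chr19:3985449-3985478, minus strand): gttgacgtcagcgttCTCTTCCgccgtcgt
EIF2A (chr3:150546772-150546801, plus strand): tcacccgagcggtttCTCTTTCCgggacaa
EIF2D (chr1:206612451-206612480, minus strand): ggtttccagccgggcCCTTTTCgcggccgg
EIF2S3 (chrX:24054941-24054970, plus strand): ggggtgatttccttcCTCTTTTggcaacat
EIF2S3B (chr12:10505875-10505904, plus strand): ggggtgactttcttcCTCTTTTggcaacat
EIF3D (chr22:36529152-36529181, minus strand): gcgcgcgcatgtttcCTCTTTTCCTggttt
EIF3F (chr11:7987322-7987351, plus strand): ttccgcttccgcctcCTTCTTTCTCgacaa
EIF3K (chr19:38619173-38619202, plus strand): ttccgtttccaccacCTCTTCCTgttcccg
EIF3M (chr11:32583816-32583845, plus strand): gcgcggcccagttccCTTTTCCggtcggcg
EIF4A2 (chr3:186783562-186783591, plus strand): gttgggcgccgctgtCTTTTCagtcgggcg
EIF4B (chr12:53006441-53006470, plus strand): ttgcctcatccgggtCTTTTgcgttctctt

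Of these 13, 12 were listed above 0. Their median log2 ratio was −0.20, with 10 below 0 and 2 above, EIF4A2 and EIF3D. The 39 measured factor genes with a promoter sequence but without such a start had a median of 0.03, with 17 below 0 and 22 above. Over all tested protein-coding genes, those with such a start had a median of −0.06 (717 genes, 55.6% below 0) and those without a median of −0.005 (8703 genes, 50.4% below 0). With a run allowed to begin within 5 bases of a start, 22 measured factor genes had one and their median was −0.20. Of the 12 measured genes with a run at the start base, all but EIF2A had a mean of at least 20 RPKM. Factor genes of that level lay 65.0% below 0 with a median of −0.10. A difference by start sequence apart from abundance was not tested. A run of letters at an annotated start is a description of the sequence. The letters TGATGNAA, part of the element bound by the stress factor ATF4, were found on either strand of the promoters of 1 of the 54 factor genes (EIF4E3) and of 3.60% of protein-coding genes, in windows of 250 bases before to 50 after a start. No promoter was searched for EEF1A2, EEF1AKMT1, EEF1AKMT3, EEF1D, EEF2KMT, EIF2S2, EIF2AK1, EIF3A, EIF3CL, EIF3E, EIF3G, EIF3H, EIF3L and EIF4EBP1.

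The factors eIF1 and eIF1A keep the small subunit in the scanning state and guard start codon choice. The EIF1 group, formed by symbol, holds their genes and also EIF1AD. It had the highest median of the groups with more than 1 gene, 0.73. All 4 measured genes lay above 0, beside 6368 of all 12857 tested genes. EIF1B, EIF1AD and EIF1AX were among the 24 factor genes below 20 RPKM, of which 16 lay above 0. EIF1, the start codon selection factor, was at 42.5 RPKM in mock cells and 78.1 in RHCG cells, 1.84-fold (interval 1.74 to 1.94). EIF1B, its close relative, was at 7.89 and 14.8 RPKM, 1.87-fold (interval 1.54 to 2.29). The best aligned 349 bases of the EIF1 and EIF1B transcripts were 82.2% identical. EIF1B kept about the same share of the pair's summed RPKM, 15.7% and 15.9%. EIF1AD, named for an eIF1A-like domain, was at 14.6 and 23.3 RPKM, and EIF1AX, the X-linked eIF1A gene, at 5.30 and 6.76 RPKM. EIF1 had a log2 ratio of 0.86. It was 1.01 with the median ratio of a window of 51 genes around and including it removed (the neighbour shift), so EIF1 was past 2-fold under that setting.

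The eIF2 genes went both ways, with a median of −0.12, 2 above 0 and 3 below. EIF2S1, the alpha subunit that the stress kinases phosphorylate, was at 25.5 RPKM in mock cells and 31.5 in RHCG cells. EIF2S2, the beta subunit and the most abundant of the group, was at 48.7 and 67.5 RPKM, 1.39-fold (interval 1.32 to 1.46). EIF2S3, the gamma subunit that binds GTP and the initiator tRNA, was at 28.1 and 22.9 RPKM, 0.814-fold (interval 0.757 to 0.876). The 3 subunit genes thus spanned 1.91-fold in mock cells and 2.95-fold in RHCG cells. EIF2A and EIF2D, which deliver initiator tRNA by other routes, had log2 ratios of −0.12 and −0.19, and with the neighbour shift removed both EIF2A and the group median turned to 0.12.

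Of the 5 subunit genes of eIF2B, 3 lay above 0 and 2 below, with a median of 0.16. EIF2B5, the catalytic epsilon subunit, was at 39.3 RPKM in mock cells and 51.3 in RHCG cells, and EIF2B4, the delta subunit, at 15.7 and 21.2 RPKM. EIF2B1, the alpha subunit that binds phosphorylated eIF2, was at 43.6 and 32.8 RPKM. EIF2B3, the gamma subunit and catalytic partner of epsilon, had the lowest ratio of the group, with 18.4 and 12.4 RPKM, 0.675-fold (interval 0.605 to 0.752). The catalytic pair therefore lay on opposite sides of 0. EIF2B2, the beta subunit, had a log2 ratio of 0.16. With the neighbour shift removed it was −0.21, the ratio of EIF2B4 went from 0.41 to 0.01, and the group median turned to −0.18.

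The 4 eIF2 kinase genes split evenly, with a median of 0.04. EIF2AK1 (HRI, which senses heme and mitochondrial stress) was the most abundant, at 71.0 RPKM in mock cells and 55.1 in RHCG cells. EIF2AK2 (PKR, which senses double-stranded RNA and is induced by interferon) was at 11.6 and 10.05 RPKM. EIF2AK3 (PERK, the endoplasmic reticulum stress kinase) was at 3.34 and 4.27 RPKM, and EIF2AK4 (GCN2, which senses uncharged tRNA) at 13.5 and 19.2 RPKM, 1.43-fold (interval 1.34 to 1.53). GCN2 and PERK were the pair above 0 and HRI and PKR the pair below. The share of EIF2AK1 in the summed RPKM of the 4 kinases was 71.4% in mock cells and 62.1% in RHCG cells. Removal of the neighbour shift left no kinase with another sign, with ratios of −0.05 for EIF2AK1, −0.63 for EIF2AK2, 0.13 for EIF2AK3 and 0.64 for EIF2AK4.

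The eIF3 genes encode the largest initiation factor, a scaffold on the small subunit, and had the widest range of ratios of the groups. Of 14 genes 10 lay below 0 and 4 above, with a median of −0.08. EIF3A, the largest subunit, was at 22.2 RPKM in mock cells and 44.3 in RHCG cells, 1.99-fold (interval 1.91 to 2.09). Its log2 ratio of 0.96 was higher than that of 96.8% of all tested genes, and it became 1.01 with the neighbour shift removed, past 2-fold. EIF3K, a small subunit at the edge of the complex, was at 225 and 125 RPKM, 0.556-fold (interval 0.528 to 0.585). EIF3F, a subunit with an MPN domain, was at 44.4 and 25.5 RPKM, 0.575-fold (interval 0.522 to 0.633). EIF3G, an RNA-binding subunit, was at 153 and 94.97 RPKM, 0.619-fold (interval 0.587 to 0.654), and EIF3L, the partner of EIF3K in the complex, at 85.5 and 57.6 RPKM. EIF3A and EIF3K, 2 subunits of the same core, thus differed 3.59-fold in their ratio.

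**Figure D2:**
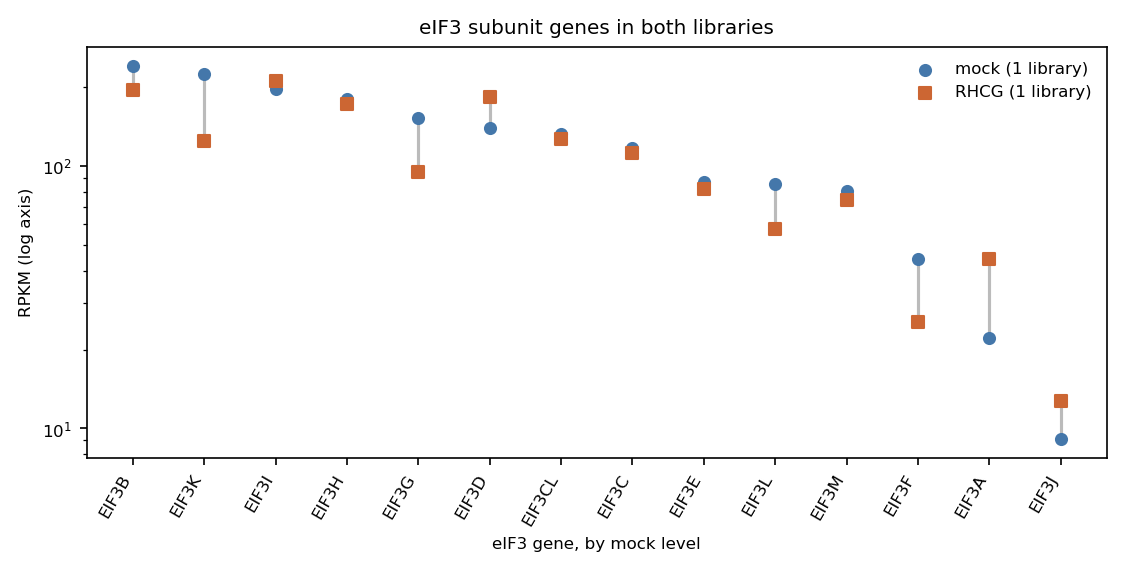
RPKM of the 14 eIF3 genes on a log axis in mock cells (circles) and the RHCG library (squares), ordered by mock level, with a line joining the values of a gene. EIF3K, EIF3G, EIF3L and EIF3F lie lower in RHCG cells, EIF3A, EIF3D and EIF3J higher, and EIF3C, EIF3CL, EIF3E, EIF3H and EIF3M nearly coincide.

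The subunits with PCI or MPN domains (EIF3A, C, E, F, H, K, L and M) form the structural core. Among these 8 genes 7 lay below 0 and EIF3A above, where 50.5% of all tested genes, and 61.2% of protein-coding genes of at least 100 RPKM, lay below. Of the 7, EIF3F and EIF3K were past 1.5-fold. EIF3M turned its sign, to 0.16, with the neighbour shift removed. EIF3C, EIF3E, EIF3H and EIF3M each had a fold between 0.924 and 0.964. Of the other 5, EIF3D, which can bind the cap of some mRNAs, was at 140 RPKM in mock cells and 184 in RHCG cells. EIF3J, a loosely bound subunit, was at 9.11 and 12.7 RPKM, and EIF3I was at 196 and 212 RPKM. EIF3B, a scaffold subunit and the most abundant of the group in mock cells, was at 242 and 196 RPKM. EIF3B lies among genes with a median ratio of −0.34, and its own ratio of −0.31 was 0.03 with that shift removed. The 13 subunit genes spanned 26.6-fold in RPKM in mock cells and 16.7-fold in RHCG cells. EIF3C and EIF3CL are copies whose transcripts were 100% identical over 3079 aligned bases, so their values of 117 and 133 RPKM in mock cells and 113 and 127 in RHCG cells cannot be assigned to 1 copy.

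In the eIF4 group 6 genes lay above 0 and 6 below, with a median of −0.01, and the eIF4A helicase genes stood at both ends. EIF4A2 was at 132 RPKM in mock cells and 240 in RHCG cells, 1.82-fold (interval 1.76 to 1.89). EIF4A1, the other eIF4A of initiation, was at 106 and 72.1 RPKM, 0.678-fold (interval 0.645 to 0.713). EIF4A3, a member of the same helicase family that works in the exon junction complex, was at 116 and 71.8 RPKM, 0.621-fold (interval 0.591 to 0.652). EIF4A2 made up 55.4% of the summed RPKM of EIF4A1 and EIF4A2 in mock cells and 76.9% in RHCG cells, while the sum went from 238 to 312 RPKM. The transcripts of EIF4A1 and EIF4A2 were 77.5% identical over 1218 aligned bases.

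Both helicase genes carry small nucleolar RNAs in their introns, and all exon bases of EIF4A1 also belong to overlapping gene models, among them the readthrough SENP3-EIF4A1. The 3 small RNAs within EIF4A1 (SNORA48, SNORA67 and SNORD10) had plain folds of 0.818, 0.714 and 0.737, all below 1. Of the 4 within EIF4A2, SNORD2 (1.58), SNORA81 (1.47) and SNORA63 (1.23) lay above 1 and SNORA4 (0.912) below. Within this pair 6 of 7 small RNAs went the same way as their host. In other factor genes, 4 of 7 listed ones went the opposite way: SNORA41 (2.46) in EEF1B2, SNORD37 (1.22) in EEF2, SNORA28 (1.28) in EIF5 and SNORD66 (0.889) in EIF4G1. SNORA41 was near the floor, at 1.62 RPKM in mock cells and 3.97 in RHCG cells, and EIF4G1 itself was nearly level at 1.02-fold. Reads of the small RNAs and of the host exons may not have been kept apart in the counting. The part of the small RNAs in the host values was not tested.

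The scaffold genes differed as well. EIF4G1, the main scaffold of eIF4F, was at 247 RPKM in mock cells and 253 in RHCG cells, 1.02-fold (interval 1.01 to 1.04). EIF4G2 (also called DAP5), which lacks the eIF4E-binding part, was at 253 and 171 RPKM, 0.674-fold (interval 0.661 to 0.688). EIF4G2 lies among genes with a median ratio of −0.43, and its ratio of −0.57 was −0.14 with that shift removed. EIF4G3 was at 7.88 and 10.2 RPKM. EIF4H, a cofactor of eIF4A, was at 152 and 203 RPKM, with a ratio of 0.42 that was 0.06 with the neighbour shift removed. EIF4B, the other cofactor, was at 193 and 171 RPKM, with a ratio of −0.17 that was 0.19 with the shift removed.

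The cap-binding genes were low. EIF4E was at 2.63 RPKM in mock cells and 3.56 in RHCG cells, 1.35-fold (interval 1.22 to 1.502), and EIF4E2, which represses translation by binding caps without eIF4G, at 6.82 and 4.67 RPKM, 0.685-fold (interval 0.604 to 0.775). The annotated exons of EIF4E together cover 11814 bases, and RPKM depends on the length the authors used, which is not given. EIF4ENIF1, which carries eIF4E into the nucleus, was at 11.0 and 12.6 RPKM.

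The 3 genes of eIF4E-binding proteins did not go together. EIF4EBP1 was at 43.5 RPKM in mock cells and 80.7 in RHCG cells, 1.86-fold (interval 1.71 to 2.02), with a log2 ratio of 0.88. EIF4EBP2 was at 20.2 and 13.7 RPKM, 0.678-fold (interval 0.641 to 0.717). EIF4EBP3 was at 3.04 and 2.53 RPKM on about 40 and 39 reads, with an interval of 0.524 to 1.33 that includes no difference, and 73.4% of its exon bases also belong to the readthrough ANKHD1-EIF4EBP3. As background, EIF4EBP1 is a known target of ATF4; its promoter was not searched here. It made up 65.2% of the summed RPKM of the 3 genes in mock cells and 83.3% in RHCG cells, and the sum went from 66.7 to 96.9 RPKM.

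**Figure D3:**
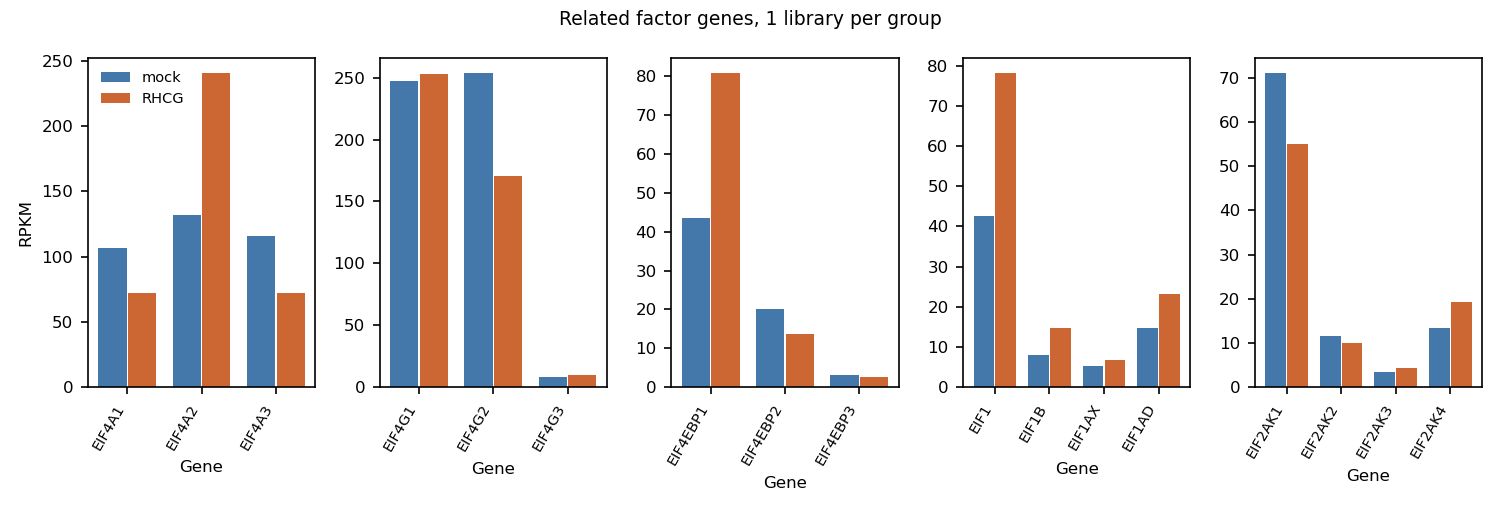
Bars give RPKM in mock cells (blue) and the RHCG library (orange) for 5 families of related factor genes, 1 library per bar, with each panel on its own axis from 0. EIF4A2, EIF4EBP1 and EIF1 are taller in RHCG cells, and EIF4A1, EIF4A3, EIF4G2 and EIF2AK1 are shorter.

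The eIF5 group had a median of −0.09. EIF5, the GTPase activator of eIF2, was at 35.3 RPKM in mock cells and 28.2 in RHCG cells. EIF5A, the hypusine-carrying factor that helps stalled ribosomes, was at 198 and 158 RPKM, 0.801-fold (interval 0.775 to 0.828). EIF5AL1, a copy with 98.0% identity to EIF5A over 1152 aligned bases, was at 89.3 and 83.9 RPKM, and reads of the 2 may not be told apart. EIF5B, which joins the subunits, was 1.59-fold (interval 1.35 to 1.88). EIF6, which keeps the large subunit from joining too early, was at 224 and 261 RPKM, 1.16-fold.

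Of the most abundant elongation factor genes, EEF2 and EEF1A1 were lower in RHCG cells and EEF1G was nearly level, none of them past 1.5-fold. Of protein-coding genes of at least 100 RPKM, 61.2% lay below 0. EEF2 was at 0.707-fold (interval 0.701 to 0.713) and EEF1A1, which carries aminoacyl-tRNA to the ribosome, at 922 and 793 RPKM, 0.860-fold. The exchange factor genes EEF1B2 (75.4 and 63.5 RPKM) and EEF1D (134 and 108 RPKM) lay at 0.842-fold and 0.811-fold. EEF1G, the gamma subunit of that exchange complex, was at 586 and 578 RPKM, 0.987-fold (interval 0.966 to 1.01, which includes no difference), and 99.9% of its exon bases also belong to another gene model. Of the 11 measured genes of the group 6 lay below 0 and 5 above, with a median of −0.02. The ratio of EEF2, −0.50, was −0.29 with the neighbour shift removed.

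The elongation group members above 0 were less abundant. EEF1A2, the eEF1A gene of muscle and neurons that some carcinomas express, was at 46.7 RPKM in mock cells and 70.4 in RHCG cells, 1.51-fold (interval 1.42 to 1.60), and made up 4.82% and 8.16% of the summed RPKM of both eEF1A genes. EEF1E1, a scaffold of the aminoacyl-tRNA synthetase complex, was at 7.31 and 11.5 RPKM. EEF1AKMT1 and EEF1AKMT3 encode lysine methyltransferases of eEF1A. The first was at 3.18 and 5.31 RPKM, the second at 2.73 and 4.36 RPKM. EEF1AKMT2, of the same family, was at 1.01-fold. EEF2K, the kinase that inhibits eEF2, was at 7.83 and 6.48 RPKM, 0.828-fold (interval 0.760 to 0.902).

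Each factor gene was also set beside its neighbours on the chromosome. For each, the median log2 ratio was taken over a window of 51 protein-coding genes around it whose mean reached 3 RPKM. The window holds the gene itself where its own mean reached that level. These medians ranged from −0.48 around EIF3F on chromosome 11 to 0.61 around EEF1AKMT1 on chromosome 13. For 15 of the 64 factor genes the neighbour median was more than 0.25 from 0. Over the 64, the Pearson r of a gene's ratio with its neighbour median was 0.384, from windows that can hold the gene itself. How far ratios run together along the chromosomes over all genes was not tested. The ratio of EEF1AKMT1 was 0.60 and −0.02 with the shift removed, and that of EIF3F was −0.77 and −0.29. Those of EIF4A2 (0.66), EIF4EBP1 (0.69), EIF1B (0.75) and EIF3K (−0.77) remained past 1.5-fold, while EIF1AD (0.42), EEF1E1 (0.41), EIF3G (−0.49) and EIF4A3 (−0.48) did not. The removal put EEF1AKMT3 (0.88), EEF1A2 (0.68), EIF3D (0.64), EIF2AK4 (0.64), EIF4E2 (−0.68), EIF2AK2 (−0.63) and EIF4EBP2 (−0.62) past it. With EIF1 and EIF3A, 9 genes were then higher and 4 lower at 1.5-fold. The share over all genes under this setting is not given here, so these counts have no background. The sign changed for 9 genes, EEF1AKMT1, EIF2A, EIF2B2, EIF3B, EIF3M, EIF4B, EIF4G1, EIF4EBP3 and EIF5A2.

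**Figure D4:**
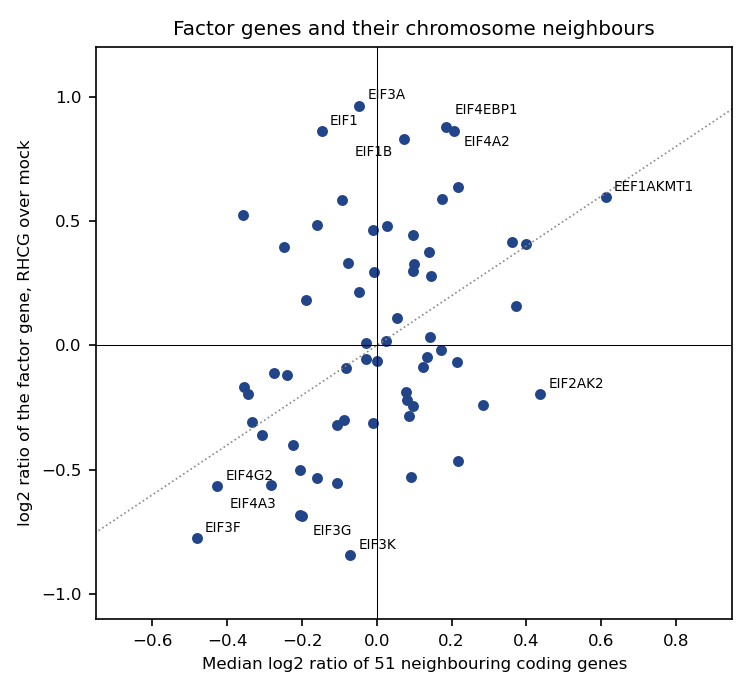
Each point is 1 of the 64 measured factor genes, with the median log2 ratio of 51 neighbouring protein-coding genes on the horizontal axis and its own log2 ratio, RHCG over mock, on the vertical axis. The 51 hold the gene itself where its mean reached 3 RPKM. The dotted line marks equality. EEF1AKMT1 lies close to it, while EIF3A, EIF1, EIF1B, EIF4EBP1 and EIF4A2 lie well above it and EIF3K well below.

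Other genes that act with these factors were taken from 6 lists, of which 69 of 70 genes were measured (TPT1 was listed at 0 in both libraries). The lists were chosen with earlier results of these data known, so a contrast of their counts with all genes is not a test. Of the 69, 7 were higher by the 2-fold rule and 0 lower, beside 2.74% and 3.30% of all tested genes, and their median was 0.10. The highest was SESN2, a sestrin that restrains mTORC1 when amino acids are short (log2 ratio 1.71). DDIT4, another mTORC1 inhibitor, was at 304 RPKM in mock cells and 682 in RHCG cells, and MKNK2, a kinase of eIF4E, at 121 and 254 RPKM. PPP1R15A (GADD34), the stress-induced subunit of the phosphatase that restores eIF2, was at 66.3 and 156 RPKM. IMPACT, an inhibitor of GCN2, was at 4.09 and 10.7 RPKM, and ANGEL1, an eIF4E-binding protein, at 10.1 and 21.5 RPKM. SBDS, which releases eIF6 from the large subunit and has a nearly identical pseudogene, was at 21.02 and 56.5 RPKM. IMPACT and ANGEL1 were no longer past 2-fold with the neighbour shift removed (0.80 and 0.77).

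Within the lists, the 17 genes of mTORC1 and MNK signalling had a median of −0.04. SESN2, DDIT4 and MKNK2 were higher, and 12 genes lay below 0 (all tested genes: 6489 of 12857). With the neighbour shift removed, 9 of the 17 lay above 0 and 8 below. MTOR itself was at 19.8 and 19.5 RPKM, and LARP1 at 47.9 and 44.2 RPKM. The 7 genes of eIF2 phosphatase and GCN2 control had a median of 0.29, with PPP1R15A and IMPACT higher. PPP1R15B, the constitutive counterpart of PPP1R15A, was at 41.3 and 50.9 RPKM, and GCN1, the activator of GCN2, at 101 and 66.9 RPKM. The 14 cap and poly(A) binding partners had a median of 0.07, with ANGEL1 higher, and PABPC1, the main poly(A)-binding protein, was at 253 and 217 RPKM. Of 11 genes of reinitiation, termination and recycling 10 lay above 0 (all tested genes: 6368 of 12857), with a median of 0.34 and SBDS higher. PELO (0.002), GSPT1 (0.06) and MCTS1 (0.07) were close to 0, and with the neighbour shift removed 8 of the 11 lay above 0 and 3 below. Genes of hypusine and diphthamide modification (median 0.14, from DHPS at −0.23 to DPH2 at 0.60) and of mitochondrial translation (median 0.15, from TSFM at −0.62 to GFM1 at 0.66) held 0 called genes. DHPS acts in the synthesis of the hypusine of eIF5A, DPH2 acts on the diphthamide of eEF2, and TSFM and GFM1 are mitochondrial elongation factors. Of the 11 mitochondrial genes 8 lay above 0 and 3 below, and with the neighbour shift removed 4 above and 7 below.

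**Figure D5:**
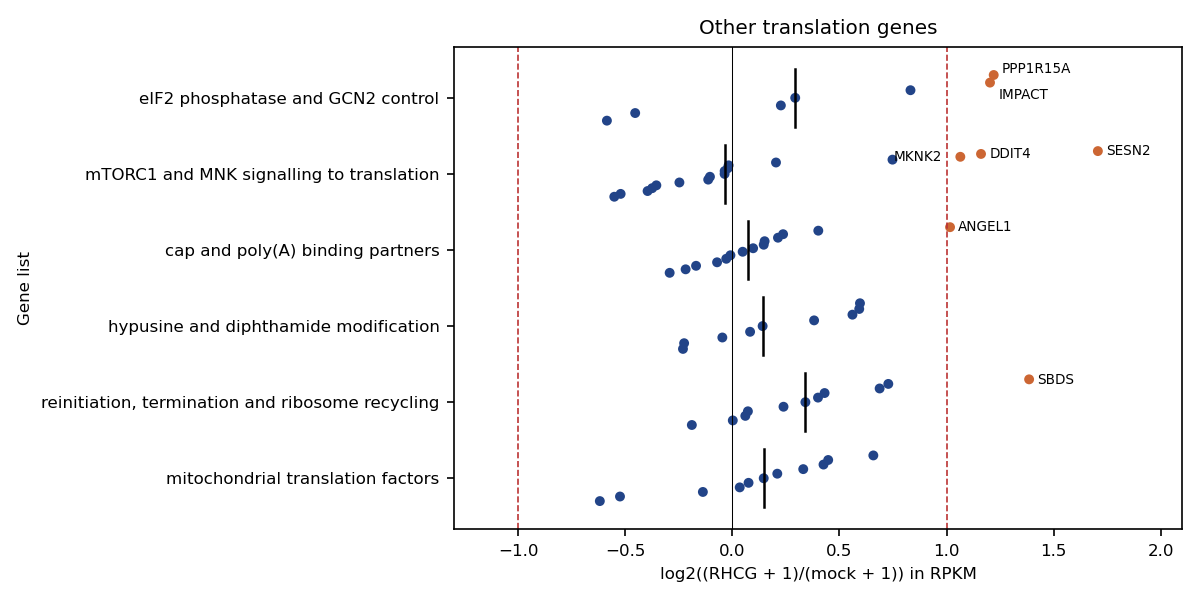
Each point is 1 measured gene of 6 lists of other translation genes, with log2((RHCG + 1)/(mock + 1)) in RPKM on the horizontal axis. Black bars are list medians, dashed lines mark 2-fold and orange points are the 7 genes past it, all on the higher side. The lists were chosen with earlier results of these data known.

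RHCG itself was listed at 0 in mock cells and at 413 RPKM in RHCG cells, as labelled. Depth was estimated at about 18900000 reads (mock) and 22100000 reads (RHCG), from steps that only part of the small RNA values followed. By this estimate the factor genes listed in both rested on at least 39 reads each, 2 of them on under 100. For 58 of these 62 genes the counting interval did not include a fold of 1. That share over all genes is not given here. The intervals leave out the spread between cultures, so 58 is not a count of changed genes. Of 11 squamous epithelium markers 9 were listed in both libraries, with a summed level of 875 and 429 RPKM. KRT6A (−3.14), KRT15 (−1.85) and KRT13 (−1.31, at 407 and 164 RPKM) were lower by the 2-fold rule, KRT14 (0.27) and DSG3 (0.76) lay above 0, and KRT5 and PKP1 were at 0 in both. Summed levels of fibroblast markers were 2.45 and 1.44 RPKM, the leukocyte marker CD68 was at 15.4 and 8.89 RPKM with PTPRC, CD3E, CD14 and LYZ at 0, and all 4 endothelial markers were at 0. A gene listed at 0 can have had up to 1 RPKM or not have been counted, as KRT5 and TPT1, which such cells usually express, were at 0 in both.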

How the data were processed

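Total RNA of 2 stable KYSE30 transfectants was depleted of ribosomal RNA and sequenced from Ion Torrent libraries, per the labels' protocols. Genome build hg19 and bedtools 2.25.0 are named in the submitters' processing notes. Of the aligner, the transcript lengths and the use of strand, each is not given in the sources used here. Log2 values of RPKM, none below 0, were deposited by the authors under a header of RPKM, per the file headers and the values. The 40448 rows, 112 of them copies, were unlogged and summed to 40392 Entrez genes, and genes listed at 0 were set to 1 RPKM. Genes listed above 0 in at least 1 library were tested by the 2-fold rule with 1 RPKM added and the deposited scaling kept. A mean of at least 1 RPKM removed none of them. Any factor gene could be named; both values are given for the extremes of each group, and for called genes or extremes of the other lists.

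Depth was estimated from small RNA genes: part of their values of RPKM times length were whole multiples of 52.8 (mock) and 45.3 (RHCG), and read numbers and intervals rest on these steps. Among small RNA values below 20 reads, 47 of 182 (25.8%, mock) and 66 of 173 (38.2%, RHCG) were whole to 0.01 reads, so counts were not recovered. Read numbers used exons of GENCODE 29 transcripts with a RefSeq accession. Symbols, gene order and start sequences came from RefSeq (GRCh38.p14). Members and lists were chosen with earlier results of these data known. The rule was checked on simulated data. Alternatives changed the added value, filter, floor, copy rows, scaling, threshold and neighbour shift. Tools were Biopython 1.88, matplotlib 3.10.9, scipy 1.17.1, pandas 2.3.3 and numpy 2.4.6 under Python 3.11.15.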

Additional observations from a re-analysis of the deposited data

How the results depend on the processing

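No paired analysis was possible because each group held 1 library, which also could not be left out. Counts of factor genes past the rule, 0 higher and 0 lower, became 8 and 4 at 1.5-fold, 1 and 1 with a floor of 0 RPKM for genes listed at 0 (EIF5A2 and EIF4E3, by construction), and 2 higher with the neighbour shift removed (EIF1 and EIF3A). They stayed at 0 with 0.1 RPKM added, no filter (the same genes by construction), a mean of at least 5 RPKM, the row with the highest total and both scalings, whose shifts were 0.01. The median of −0.05 was 0.00834 without EIF3CL, EIF5AL1, EEF1G, EIF4A1 and EIF4EBP3, which share exons or have near-identical copies, a setting added after the data were seen, as was the run within 5 bases of a start. A mean of at least 5 RPKM gave medians of −0.19 (EIF2AK), −0.0679 (EIF4), 0.17 (EIF4EBP), −0.31 (EIF5) and −0.23 (EEF), on fewer genes. The floor of 0 RPKM gave −0.0679 for EIF4. Removal of the neighbour shift gave 0.12 (EIF2), −0.18 (EIF2B), 0.15 (EIF4EBP), −0.00844 (EIF5), 0.27 (EIF6) and −0.19 (EEF), and −0.28 for genes with a pyrimidine start. The cause was not tested. The EIF4EBP median, −0.19 in the main setting, thus changed sign at a mean of at least 5 RPKM and under this removal. In the other lists, the floor of 0 RPKM gave 1 lower gene in mTORC1 and MNK signalling, 1 higher in hypusine and diphthamide modification and 1 higher in mitochondrial translation. The 1.5-fold rule gave 3 higher and 1 lower for eIF2 phosphatase and GCN2 control, 4 higher for mTORC1 and MNK signalling, 2 higher for hypusine and diphthamide modification, 3 higher for reinitiation, termination and recycling, and 1 higher and 1 lower for mitochondrial translation. Removal of the neighbour shift gave 1 higher for eIF2 phosphatase and GCN2 control and 0 for cap and poly(A) binding partners. At the 1.5-fold rule, 11.3% of all tested genes were higher and 11.5% lower. For the counts with the neighbour shift removed or a floor of 0 RPKM, no share over all genes is given here. With 1 library per group, no value carries the spread between cultures.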

Other observations

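The tables also hold rows named after these factors that are not protein-coding. All 156 pseudogene rows with such names were listed at 0 in both libraries, among 10600 pseudogene rows of the tables, of which 14 (0.132%) were listed above 0 in either library. The transcribed pseudogene EIF3IP1 was at 59.6 RPKM in mock cells and 62.5 in RHCG cells. Of 5 long non-coding RNA rows 2 were listed, EIF3J-DT at 3.90 and 3.47 RPKM and EIF2AK3-AS1 at 1.87 and 2.60 RPKM. Small nucleolar RNAs inside other factor genes were listed as well: SNORD37 in EEF2 was at 1183 and 1445 RPKM, while its host was at 0.707-fold, SNORD97 in EIF4G2 was at 656 and 540 RPKM, SNORD66 in EIF4G1 at 498 and 443 RPKM, and SNORA28 in EIF5 at 115 and 148 RPKM.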
